A study of Rattus norvegicus with 4 samples.

Results

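The genes described here carry fatty acids from the blood into liver cells, activate them to acyl-CoA, move them into mitochondria or peroxisomes, break them down by beta-oxidation and pass the product on to ketone bodies, together with factors that set the rate of this pathway. They were chosen by name, with earlier results of these data known. Of 36 gene symbols listed, 35 had a row among the 21791 rows of the deposited expression table, 1 row each. The expression of Ehhadh, the peroxisomal bifunctional enzyme, was not analysed here. Of the 35, 31 were detected on all samples, where detected means a detection p-value under 0.05 against the negative control beads of the array. Acot1 and Acsm2 were detected on some samples only. Angptl4 and Crat had detection p-values that missed the threshold and that lie off the steps taken by single probes, as an average over probes would, and they are described apart from the others.

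In the liver, long-chain fatty acids are bound by Fabp1, made into acyl-CoA by the Acsl enzymes and passed through the mitochondrial membranes by Cpt1a and Cpt2. Each turn of the beta-oxidation spiral then removes a piece of the chain as acetyl-CoA, while electrons leave through the flavoproteins Etfa, Etfb and Etfdh. In fasting or on a fat-rich diet, acetyl-CoA is turned into ketone bodies for export. Many of these genes are targets of PPAR-alpha, a nuclear receptor that fatty acids activate. Pdk4, Angptl4 and Fgf21, which shift fuel use from glucose to fat, are among its targets too.

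Liver RNA of male Wistar rats, 4 months old, was read on Illumina BeadArrays. The rats were controls or had been undernourished before birth (FR30 in the labels), and within each of these a standard diet was set against a high-fat one, with 1 deposited sample in each of the 4 groups. How much fat the diet held, how severe the undernutrition was and when it fell, and whether RNA of several animals was pooled were not stated in the labels. The titles of the standard-fed samples name no diet; the series' design text gives the standard diet for controls, and for FR30 it was read from the absence of a high-fat label. With 1 sample per group no difference below has a replicate check, and no test or p-value was computed. Each value is a deposited signal ± the STDEV that the authors deposited beside it. The number of measurements behind a STDEV was not stated. Across all genes the STDEV reached 1.63 times its signal, which takes at least 3 measurements that are never negative, so a value is a mean over at least that many in the FR30 standard sample. Folds were taken after the background was subtracted, and genes were counted at 1.5-fold.

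The samples carried liver markers: 7 of 8 hepatocyte markers with a row were detected in each, and albumin (Alb) read between 37726.1 and 45364.4. Between 8996 and 9220 of 21480 genes were detected per sample. The FR30 standard sample stood apart in its STDEVs: 114 detected genes had a STDEV over 20% of the signal there, against 1 in standard-fed controls and 0 in each high-fat sample. Among 12 markers of white and brown fat, 8 were detected with such a STDEV in the FR30 standard sample, and the summed signal of the 12 was 10360 against 3081 to 3741 in the other samples. Among 7 skeletal muscle markers 6 were, with a summed signal of 1907 against 1146 to 1179. In the non-normalized table, whose rows were put to genes by row order, neither sum was raised in that sample: the fat markers summed to 2831 against 2934 to 4066 in the other samples, and the muscle markers to 1093 against 1161 to 1176. Of the members only Cd36 had such a STDEV, 37.5% of its signal, and all other members lay between 0.384% and 13.5% in every sample. The summed signal of 3 erythroid markers went with diet, at 10978 and 11347 in the standard-fed control and FR30 samples and 18134 and 19071 in the high-fat ones. The part of blood in the diet differences below was not tested.

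The first question is which members differed with diet, in controls and, separately, in FR30 offspring. The thioesterase Acot1, the medium-chain acyl-CoA synthetase Acsm2 and the pantetheinase Vnn1 had higher signals with the high-fat diet in both. In control offspring 5 of 33 members compared were at least 1.5-fold higher, against 2.52% of 9320 genes, and 2 of 33 were lower, against 3.23%. In FR30 offspring 4 of 33 were higher, against 3.72% of 9499 genes, and 0 of 33 lower, against 3.24%. At that fold 3 of 33 members were higher in both, against 1.08% of 9059 genes compared in both, 0 were lower in both, against 0.883%, and 0 went opposite ways, against 0.342%. Whatever its size, the sign of the diet difference was the same in both for 21 of 31 members detected on all samples, against 59.7% of genes. The counts at 1.5-fold rest on 5 members or fewer, and Vnn1 lay at the threshold in control offspring. The median log2 difference over members detected on both samples was 0.01 in control and 0.02 in FR30 offspring, beside 0.01 and -0.00 over all genes. Of the 33 members compared, 24 stayed within 1.5-fold in all comparisons, with a median size of 0.12 and a largest size of 0.55 on the log2 scale. In whole liver, fewer cells of a type and less RNA per cell cannot be told apart.

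**Figure D1:**
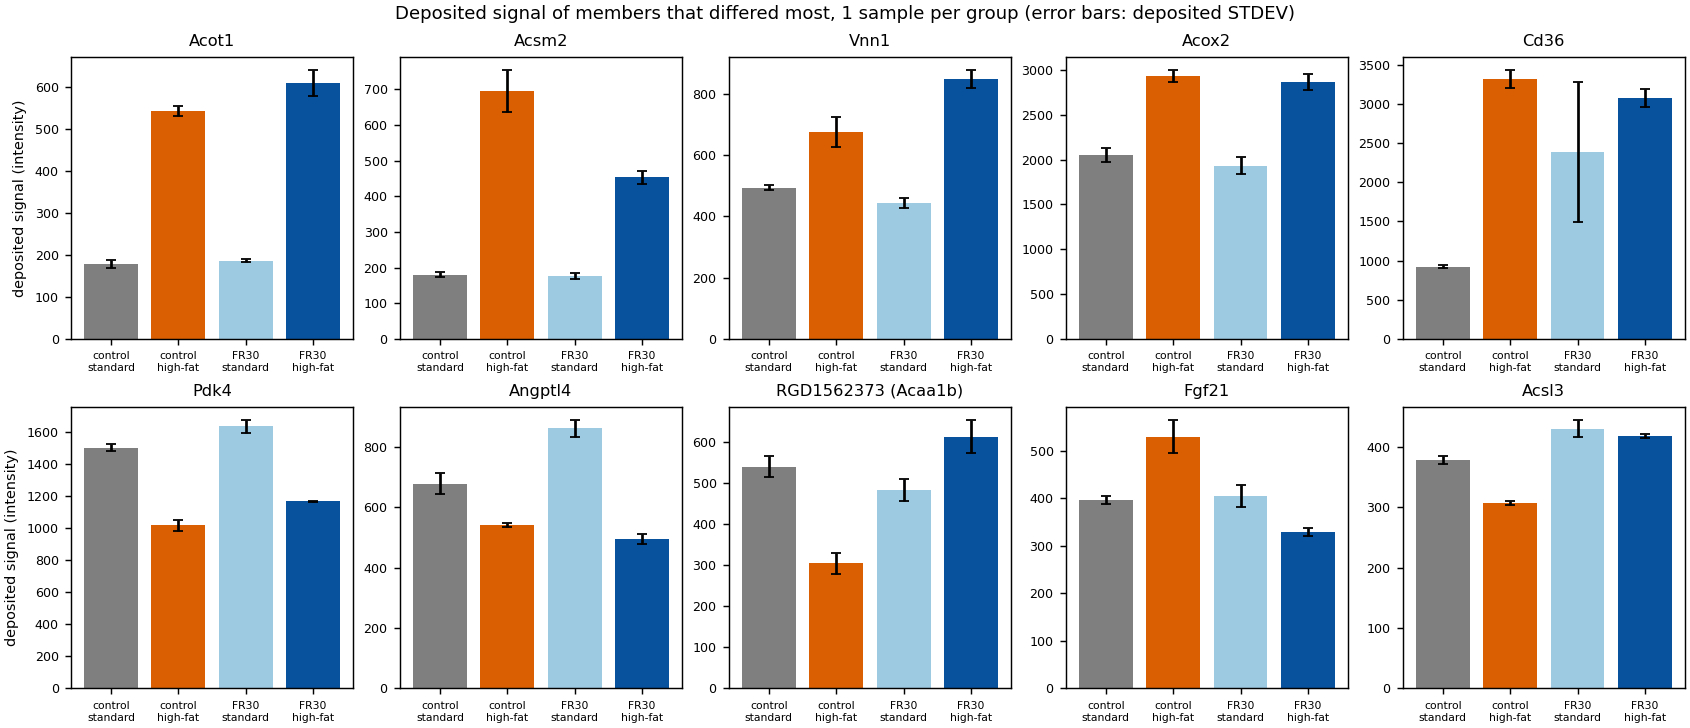
Deposited signal (intensity, linear axes from 0) of 10 members in the 4 samples, 1 sample per group, with the deposited STDEV as error bars. Acot1, Acsm2, Vnn1 and Acox2 were higher in both high-fat samples, and Pdk4 and Angptl4 lower. For RGD1562373 (Acaa1b) and Fgf21 the diet difference had opposite signs in control and FR30 offspring.

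Acot1, a cytosolic thioesterase that splits long-chain acyl-CoA back into fatty acid and CoA, read 177.6 ± 9.26 in standard-fed and 543.1 ± 12 in high-fat-fed controls, and 185.7 ± 3.5 in standard-fed and 608.5 ± 30.7 in high-fat-fed FR30 offspring. Both standard samples were near the lowest detected signal, 180.8 in the control and 182.0 in the FR30 standard sample, and both high-fat samples were clearly above it. After background correction it was at least 8.7-fold higher in control offspring, where the undetected standard value was set to the lowest detected one, and 9.43-fold higher in FR30 offspring. The deposited signals themselves differed 3.06-fold and 3.28-fold, so the larger folds, and the bound, hold on the background-corrected scale alone. Acot2, its mitochondrial relative from the same gene cluster, read 339.0 ± 22.4, 331.4 ± 16.4, 291.8 ± 13.6 and 331.9 ± 6.14 in the same order. Its log2 differences were -0.06 and 0.34, so the large diet difference of Acot1 was not seen in Acot2. Whether the Acot1 probe also reads related transcripts was not tested, since no probe sequences were used here.

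Acsm2 activates medium-chain fatty acids in the mitochondrial matrix. It read 180.3 ± 7.43 in standard-fed and 695.3 ± 58 in high-fat-fed controls, and 176.1 ± 9.29 in standard-fed and 453.2 ± 17.9 in high-fat-fed FR30 offspring. It was not detected on either standard sample, and on the same corrected scale it was at least 12-fold higher in control and at least 6.7-fold higher in FR30 offspring. The deposited signals differed 3.86-fold and 2.57-fold. The high-fat samples also differed from each other, with FR30 1.77-fold lower than control.

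The promoters of Acot1 and Acsm2 are shown because these members had the largest differences with diet, and those of Fabp1 and Acadvl because they came closest to the direct repeat bound by PPAR and RXR. The sequences are the 250 bases before the gene start in RefSeq, build GRCr8, read 5′ to 3′ on the gene's strand, and capitals mark a match. In the order Acot1, Acsm2, Fabp1 and Acadvl they lie at chr6:109367024-109367273 on the plus strand, chr1:183347455-183347704 on the plus strand, chr4:104749090-104749339 on the plus strand and chr10:55236706-55236955 on the minus strand.
Acot1 promoter: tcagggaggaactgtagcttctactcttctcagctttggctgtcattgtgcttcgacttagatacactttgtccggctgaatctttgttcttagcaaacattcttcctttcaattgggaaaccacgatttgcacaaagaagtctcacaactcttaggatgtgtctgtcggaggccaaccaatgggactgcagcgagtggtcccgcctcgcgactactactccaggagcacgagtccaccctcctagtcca
Acsm2 promoter: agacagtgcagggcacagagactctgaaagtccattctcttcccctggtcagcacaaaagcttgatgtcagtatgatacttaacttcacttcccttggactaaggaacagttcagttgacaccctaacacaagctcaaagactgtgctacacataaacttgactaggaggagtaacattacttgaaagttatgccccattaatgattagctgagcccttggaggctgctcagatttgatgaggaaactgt
Fabp1 promoter: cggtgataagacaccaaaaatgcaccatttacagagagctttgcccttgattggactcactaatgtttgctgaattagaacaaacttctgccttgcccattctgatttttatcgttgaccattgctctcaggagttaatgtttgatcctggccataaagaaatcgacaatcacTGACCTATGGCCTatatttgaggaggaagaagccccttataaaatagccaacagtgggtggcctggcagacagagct
Acadvl promoter: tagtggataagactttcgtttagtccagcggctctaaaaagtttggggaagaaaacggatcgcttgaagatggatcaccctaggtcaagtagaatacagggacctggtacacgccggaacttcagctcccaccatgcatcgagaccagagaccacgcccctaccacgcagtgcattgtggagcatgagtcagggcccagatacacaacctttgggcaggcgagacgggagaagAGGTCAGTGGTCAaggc
The repeat was searched as AGGTCA, 1 base of any kind (N) and AGGTCA again, on both strands, from 250 bases before to 50 after the start, with at most 2 mismatches among its 12 fixed letters, and no other motif was searched. A match lay in 6 of 32 listed genes found in the promoter table, Ehhadh included, which is 18.8%, and in 3.77% of all 33469 promoters. Vnn1, Acadl, Acaa2 and Decr1 were not found there. The members with a match were Fabp1, Acadvl, Crat, Echs1, Etfa and Creb3l3. The matches in Fabp1, whose rat promoter is a known target of PPAR-alpha, and in Acadvl had 1 mismatch each and began at positions -77 and -17 from the start. Acot1, Acsm2, Cd36, Acox2, Pdk4, Fgf21, Angptl4 and Acaa1b had no match in this window. A match is a description of these letters and not a measured site.

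Vnn1 encodes vanin 1, which frees pantothenate and cysteamine from a breakdown product of CoA and is a PPAR-alpha target in mouse liver. It read 494.5 ± 7.02 in standard-fed and 676.9 ± 49.6 in high-fat-fed controls, and 443.0 ± 16.1 in standard-fed and 848.2 ± 29.1 in high-fat-fed FR30 offspring. Both high-fat samples lay above both standard samples by more than their STDEVs. The difference was 1.5-fold in control and 2.33-fold in FR30 offspring. The log2 values were 0.59 and 1.22, with STDEVs carried over from both samples of 0.14 and 0.10. The deposited signals differed 1.37-fold and 1.91-fold, so in control offspring Vnn1 reached 1.5-fold on the background-corrected scale alone. No row of the non-normalized table was paired with Vnn1.

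Acox2 is a peroxisomal oxidase of bile acid precursors. It read 2052.3 ± 74.9 in standard-fed and 2926.7 ± 66.9 in high-fat-fed controls, and 1933.0 ± 99.3 in standard-fed and 2866.9 ± 88.1 in high-fat-fed FR30 offspring. Both high-fat samples were again above both standard samples. The fold was 1.46 in control and 1.53 in FR30 offspring, so the 1.5-fold threshold fell between values that lie close together. The second peroxisomal member, RGD1562373, annotated as similar to 3-ketoacyl-CoA thiolase B and now named Acaa1b, cuts the shortened chain at the end of each peroxisomal turn. It read 539.5 ± 25.9 in standard-fed and 304.0 ± 26.1 in high-fat-fed controls, and 483.0 ± 26.8 in standard-fed and 612.2 ± 40.4 in high-fat-fed FR30 offspring. The high-fat-fed control was low and the other samples lay between 483.0 and 612.2. High-fat minus standard was -1.27 on the log2 scale in control offspring, a 2.41-fold lower value, and 0.46 in FR30 offspring. The FR30 difference was 1.37-fold, and its intervals of 2 STDEV overlapped.

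**Figure D2:**
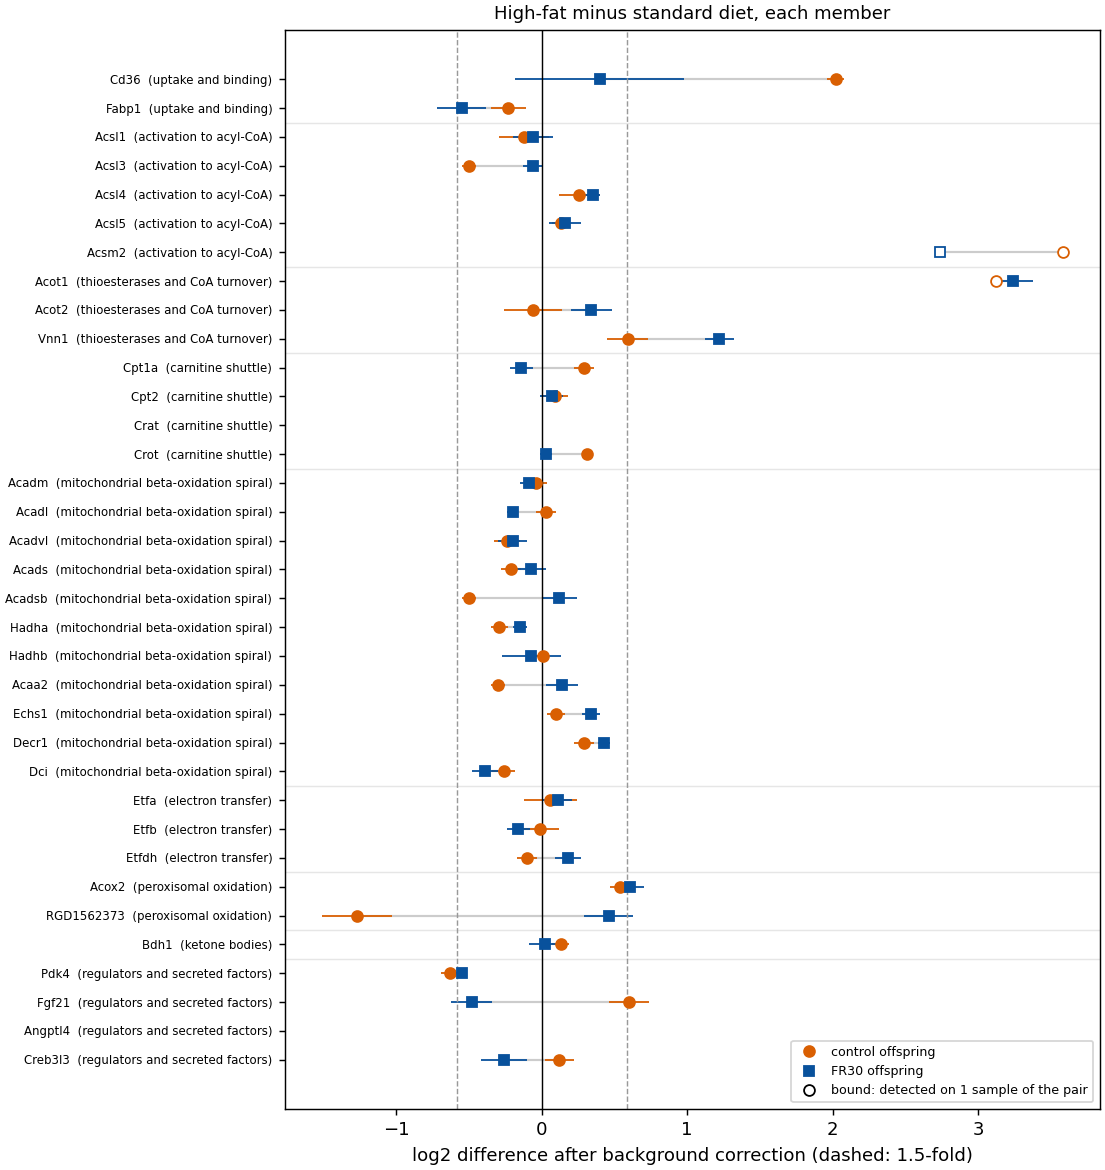
Log2 difference of high-fat minus standard diet for each member (x axis, after background correction), grouped by role, in control (circles) and FR30 (squares) offspring. Bars are the STDEVs of both samples combined, open symbols are bounds, and dashed lines mark 1.5-fold. Most members sit between the dashed lines, Acot1 and Acsm2 lie far to the right, and Crat and Angptl4 have no value.

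Cd36, the fatty acid translocase of the plasma membrane, was lowest in standard-fed controls. It read 923.7 ± 18.8 in standard-fed and 3320.5 ± 111 in high-fat-fed controls, and 2392.1 ± 898 in standard-fed and 3075.8 ± 117 in high-fat-fed FR30 offspring. Both high-fat samples were well above the control standard one. The FR30 standard value was higher too, but its interval of 2 STDEV overlapped that of the control standard sample. It had the widest STDEV of any member as a percent of signal. High-fat minus standard was 2.02 on the log2 scale in control offspring, with a combined STDEV of 0.06, and 0.40 in FR30 offspring, with a combined STDEV of 0.58. In the non-normalized table the FR30 standard signal was 1569 against 839 in the control standard sample. The same differences from that table were 2.04 and 0.77. Cd36 is also abundant in fat and muscle, whose markers were high with large STDEVs in the normalized value of this sample. In the non-normalized table the summed signals of those markers were not raised in this sample. What part fat or muscle had in the Cd36 value was not tested. Fabp1, which carries fatty acids inside hepatocytes, read 24035.1 ± 1772, 19802.2 ± 571, 24727.7 ± 966 and 17750.6 ± 2013 in the same order. It was lower on the high-fat diet by -0.23 in control and by -0.55 in FR30 offspring on the log2 scale, under 1.5-fold in both.

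Among the other acyl-CoA synthetases none passed 1.5-fold with diet in either group. Acsl1, the main long-chain synthetase of liver, had log2 differences of -0.12 and -0.06, Acsl5 of 0.13 and 0.16, and Acsl4, which favours arachidonic acid, of 0.26 and 0.35. Acsl3, a synthetase found on lipid droplets, read 378.8 ± 7, 307.2 ± 2.84, 430.6 ± 14.1 and 418.7 ± 2.88 in the same order. The control high-fat sample was lowest and both FR30 samples were highest, and the diet differences were -0.50 and -0.06.

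The carnitine shuttle stayed within 1.5-fold. Cpt1a, the rate-limiting step of entry into mitochondria, read 6736.1 ± 236 in standard-fed and 8165.5 ± 229 in high-fat-fed controls, and 8409.2 ± 347 in standard-fed and 7724.3 ± 307 in high-fat-fed FR30 offspring. The control standard sample was the lowest and the other samples lay between 7724.3 and 8409.2. The log2 difference with diet was 0.29 in control and -0.14 in FR30 offspring, with combined STDEVs of 0.07 and 0.08. Cpt2, which rebuilds acyl-CoA inside, had log2 differences of 0.09 and 0.07. Crot, which makes carnitine esters of medium-chain products of peroxisomes, had 0.31 and 0.03.

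The enzymes of the mitochondrial spiral had 0 of 11 members past 1.5-fold with diet in either direction, in control and in FR30 offspring, with median log2 differences of -0.21 and -0.07. With 3.72% of all genes or fewer called in any direction, a count of 0 among 11 is near the background. Acadm, the medium-chain dehydrogenase, read 26383.9 ± 850 in standard-fed and 25474.4 ± 1134 in high-fat-fed controls, and 25211.9 ± 1014 in standard-fed and 24648.7 ± 183 in high-fat-fed FR30 offspring. In none of the 4 comparisons were its intervals of 2 STDEV apart. Acadvl, the very-long-chain dehydrogenase, read 5639.8 ± 291, 4854.3 ± 183, 5459.5 ± 156 and 4859.7 ± 309 in the same order, and both high-fat samples were the lower ones. Hadha, the alpha subunit of the trifunctional protein, read 4066.5 ± 21.7, 3358.1 ± 142, 3911.5 ± 81 and 3587.3 ± 91.2 in the same order. Its log2 differences of -0.29 and -0.15 had the same sign as those of Acadvl, -0.24 and -0.20. Hadhb, the beta subunit of that protein, read 14755.7 ± 151, 15402.7 ± 387, 16228.7 ± 2191 and 15261.8 ± 489 in the same order, and its differences were 0.01 and -0.07. Quantile normalization shifted such bright genes a little, so a small log2 difference can carry the opposite sign to the deposited signals, as for Acadm between standard-fed FR30 and control offspring, at 0.05.

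The auxiliary enzymes that handle unsaturated chains differed in opposite directions. Decr1, the dienoyl-CoA reductase, read 13052.1 ± 546 in standard-fed and 16587.2 ± 328 in high-fat-fed controls, and 14434.0 ± 253 in standard-fed and 19135.3 ± 345 in high-fat-fed FR30 offspring. It was higher in both high-fat samples, by 0.29 and 0.43 on the log2 scale. Dci (now Eci1), the isomerase that shifts a double bond so that the spiral can go on, read 20750.2 ± 783, 17222.4 ± 724, 20480.4 ± 859 and 15413.3 ± 688 in the same order. It was lower in both high-fat samples, with differences of -0.26 and -0.39. Intervals of 2 STDEV were apart in controls for 7 of 31 members on the higher side, against 15.1% of 8737 genes, and for 8 on the lower side, against 14%. In FR30 offspring they were apart for 7 of 32 members on the higher side, against 11.2% of 8736 genes, and for 5 on the lower side, against 11.1%. For Decr1 and Dci the intervals were apart in both diet comparisons. Together with Vnn1, Acox2 and Pdk4 these were 5 of 31 members with such intervals apart and the same sign in both, against 8.64% of 8457 genes detected on all samples. These genes were picked out after their values were seen. Echs1, the enoyl-CoA hydratase, was higher by 0.10 and 0.34, and Acadsb, the dehydrogenase of short branched chains, had differences of -0.50 and 0.12.

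Electron transfer and ketone genes showed small differences. Etfa, Etfb and Etfdh lay between -0.16 and 0.18 on the log2 scale in both diet comparisons. Bdh1, the mitochondrial dehydrogenase that interconverts acetoacetate and 3-hydroxybutyrate, had differences of 0.13 and 0.02. Its signals ranged from 5170.9 to 5674.6.

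Among the regulators, Pdk4 was lower on the high-fat diet in both groups. Pdk4 encodes the kinase that switches off pyruvate dehydrogenase and so spares glucose when fat is burned. It read 1498.0 ± 22 in standard-fed and 1015.8 ± 33.8 in high-fat-fed controls, and 1632.1 ± 39.6 in standard-fed and 1164.9 ± 4.48 in high-fat-fed FR30 offspring. Both high-fat samples lay below both standard samples by more than 2 STDEV. The fold was 1.54 in control and 1.46 in FR30 offspring, with log2 differences of -0.63 and -0.55. Fgf21, a fasting hormone made by the liver, read 395.8 ± 8.83 in standard-fed and 529.1 ± 35.1 in high-fat-fed controls, and 404.9 ± 23 in standard-fed and 328.7 ± 7.62 in high-fat-fed FR30 offspring. Fgf21 was highest in high-fat-fed controls and lowest in high-fat-fed FR30 offspring. Its log2 difference with diet was 0.60 in control and -0.48 in FR30 offspring. Creb3l3, the membrane-bound transcription factor that works with PPAR-alpha on Fgf21, had differences of 0.12 and -0.26.

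Angptl4, a secreted inhibitor of lipoprotein lipase, read 678.8 ± 34.6 in standard-fed and 540.8 ± 6.45 in high-fat-fed controls, and 861.9 ± 27.7 in standard-fed and 494.8 ± 16.4 in high-fat-fed FR30 offspring. The deposited detection p-values of Angptl4 lay between 0.06178 and 0.25833, so it took no part in the counts. Both high-fat samples were lower than both standard samples. Without the detection filter its log2 difference was -0.43 in control and -1.01 in FR30 offspring. Between its neighbours Angptl2 and Angptl6, 2 rows of the non-normalized table lay where 1 row stands in the normalized one. One read 149.5, 150.1, 154.8 and 145.7 in the same order and was not detected on any sample. The other read 1101.2, 953.5, 1281.4 and 996.2 with a detection p-value of 0, and after background correction and normalization its diet differences were -0.43 and -0.97. Crat, the carnitine acetyltransferase, had the same structure. Its deposited signal was 486.2 ± 32.7, 519.7 ± 10.2, 478.7 ± 15.2 and 516.1 ± 40.2 in the same order. The row between its neighbours Cradd and Crb1 that was detected had diet differences of 0.14 and 0.15.

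**Figure D3:**
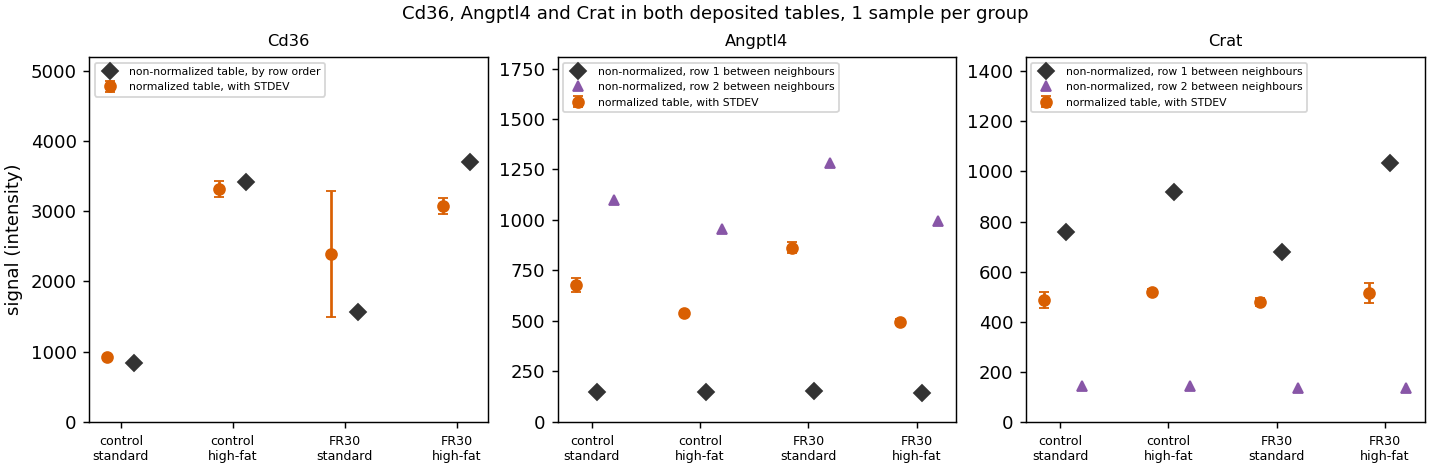
Signal (intensity, linear axes from 0) of Cd36, Angptl4 and Crat in the 4 samples, from the normalized table with its STDEV (circles) and from the non-normalized table by row order (diamonds and triangles), which is not scaled between samples. Angptl4 and Crat each have 1 row near background and 1 bright row, with the normalized value between them, and Cd36 has its widest STDEV in the FR30 standard sample.

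Next, standard-fed FR30 offspring were set against standard-fed controls, which addresses prenatal undernutrition without the added fat. Only Cd36 passed 1.5-fold: 1 of 32 members was higher, against 2.01% of 9479 genes, and 0 of 32 lower, against 2.12%. Its 2.84-fold difference, 1.51 on the log2 scale with a combined STDEV of 0.58, rests on the FR30 standard value described above, and the intervals of 2 STDEV overlapped. In the non-normalized table it was 1.16. Intervals of 2 STDEV were apart for 4 of 31 members on the higher side, against 8.86% of 8772 genes: Cpt1a at 0.33, Acsl3 at 0.29, Pdk4 at 0.14 and Crot at 0.08 on the log2 scale. On the lower side they were apart for 3 of 31, against 9.35%: Acaa2, the thiolase that ends the mitochondrial spiral, at -0.25, Vnn1 at -0.23 and Etfdh at -0.19. The median over 31 members detected on both samples was 0.02. Angptl4 had a log2 difference of 0.42 without the detection filter.

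On the high-fat diet, Acaa1b and Acsl3 were higher and Fgf21 and Acsm2 lower in FR30 than in control offspring. These were 2 of 33 members higher, against 1.76% of 9324 genes, and 2 of 33 lower, against 1.58%. The fold was 2.84 for Acaa1b, 1.65 for Acsl3, 2.04 for Fgf21 and 1.77 for Acsm2, and for each the intervals of 2 STDEV were apart. This comparison shares the control high-fat sample with the diet comparison in control offspring, in which Acaa1b, Fgf21 and Acsm2 also passed 1.5-fold and Acsl3 was 1.41-fold lower, so none of these is a separate result. Intervals were apart for 7 of 33 members on the higher side, against 9.56% of 8745 genes, and for 4 on the lower side, against 9.7%. Besides the genes just named these were Acadsb at 0.52, Vnn1 at 0.40, Decr1 at 0.23, Pdk4 at 0.22 and Echs1 at 0.21, and on the lower side Crot at -0.20 and Acadl, the long-chain dehydrogenase, at -0.15. Across both diets 0 of 32 members passed 1.5-fold upward on each diet, against 0.177% of 9049 genes, 0 downward, against 0.265%, and 0 in opposite directions, against 0.365%. The sign of the prenatal difference was the same on both diets for 13 of 31 members, against 47.9% of genes. Acsl3 and Pdk4 were the members higher in FR30 offspring on both diets with intervals of 2 STDEV apart, 2 of 31 against 2.87% of 8457 genes. Cd36 read -0.12 and Cpt1a -0.09 on this diet.

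**Figure D4:**
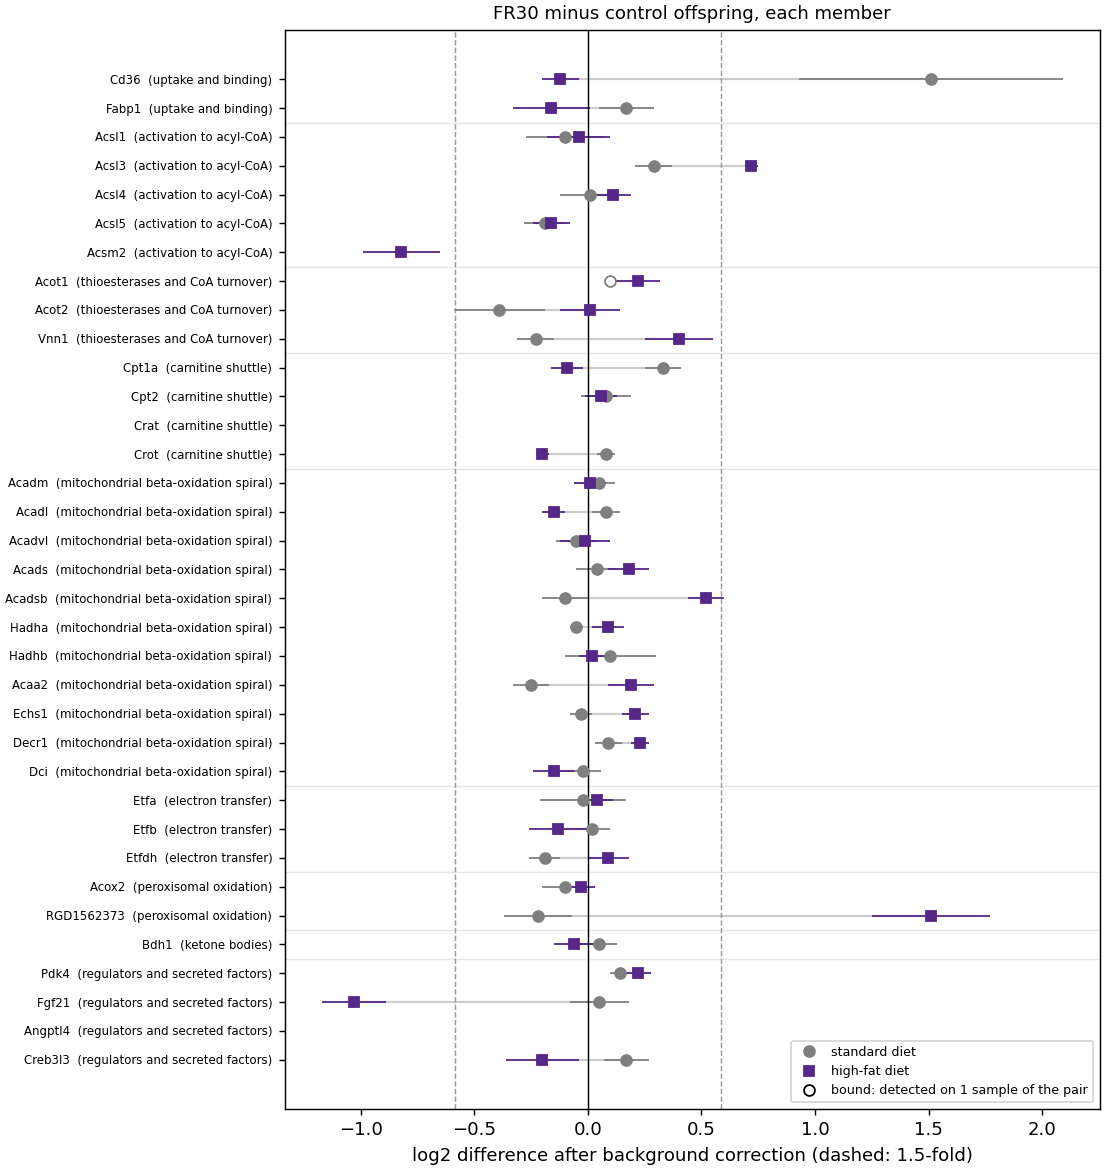
Log2 difference of FR30 minus control offspring for each member (x axis, after background correction), grouped by role, on the standard (circles) and high-fat (squares) diet. Bars are the STDEVs of both samples combined, open symbols are bounds, and dashed lines mark 1.5-fold. Cd36 stands out on the standard diet with a wide bar, and Acaa1b (RGD1562373), Acsl3, Acsm2 and Fgf21 pass a dashed line on the high-fat diet.

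The diet difference itself differed between FR30 and control offspring by at least 2-fold for 3 of 31 members detected on all samples. Acaa1b was the 1 member with the more positive difference in FR30 offspring, by 1.72 on the log2 scale with a combined STDEV of 0.30, against 1.1% of 8457 genes. Cd36 at -1.63 and Fgf21 at -1.07, with combined STDEVs of 0.59 and 0.20, were the 2 with the more negative difference, against 1.08%. Vnn1 at 0.63 and Acadsb at 0.62 were next. The sum of 4 errors enters each of these values, and none was tested.

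Other genes of the pathway were taken from lists of 97 further genes with a row. Beside the counts below, 2.52% of all genes were higher and 3.23% lower with diet in controls, and 3.72% higher and 3.24% lower in FR30 offspring, so counts of 1 or 2 in a list are near the background. Among other enzymes of oxidation and ketogenesis, 1 of 23 compared was at least 1.5-fold higher and 1 lower with diet in control offspring, and 2 higher and 0 lower in FR30 offspring. Bdh2, a cytosolic relative of Bdh1, was higher in both, by 0.82 and 0.97 on the log2 scale. Acox3, a peroxisomal oxidase, was lower in control offspring by -0.75 and read -0.06 in FR30 offspring.

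Among uptake, activation, thioesterase and peroxisome genes, 1 of 21 was higher and 1 lower with diet in control offspring, and 3 of 24 higher and 2 lower in FR30 offspring. Pex11a, which drives the division of peroxisomes, read -0.42 in control and 0.88 in FR30 offspring, and RGD1307051 (now Acss3) was lower in both, by -0.86 and -0.89. The thioesterase Acot9 was higher in both, by 0.65 and 0.60. Pex11a, like Acaa1b, was also higher in FR30 than in control offspring on the high-fat diet, by 0.93.

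PPAR-alpha targets outside beta-oxidation had 1 of 21 higher and 1 lower in control offspring, and 0 of 21 higher and 7 lower in FR30 offspring, of which 3 remained with intervals of 2 STDEV apart. The cytochrome Cyp4a8, whose signals lay between 213.1 and 328.0, was lower with diet in both, by -1.22 and -1.23. The brighter Cyp4a10 (now Cyp4a1) read -0.46 and -0.04 and Cyp4a3 -0.38 and -0.12, under 1.5-fold in both. Of the 7 genes lower in FR30 offspring, the lipases Lpl, Lipe and Pnpla2 and the lipid droplet protein Cidea, also counted above as a fat marker, carried large errors. In standard-fed FR30 offspring Lpl read 3387.0 ± 4196, Lipe 343.5 ± 230, Cidea 1016.1 ± 946 and Pnpla2 1129.5 ± 810. In the non-normalized table the diet differences of Lpl, Lipe, Cidea and Pnpla2 in FR30 offspring were 0.72, 0.24, 0.75 and 0.03, and 3 of 19 genes of this list were lower and 2 higher there. Among transcriptional regulators 2 of 16 were higher and 1 lower in control offspring, and 1 of 17 higher and 1 lower in FR30 offspring. Nr1d1, a repressor of the circadian clock, was higher with diet by at least 1.53 on the corrected log2 scale in control and by 1.46 in FR30 offspring. Pparg passed 1.5-fold in opposite directions, at 0.73 in control and -0.74 in FR30 offspring. In the non-normalized table these differences were 0.72 and -0.50. In FR30 offspring Pparg read 431.6 ± 77 on the standard and 314.4 ± 4.01 on the high-fat diet. Ppara itself was detected on the FR30 high-fat sample alone, at 185.9 ± 13.2 against 172.5 to 179.1 on the other samples. The lowest detected signal of the FR30 high-fat sample, 181.4, lies inside that STDEV. The bound on the diet difference of Ppara in FR30 offspring was 0.09 on the log2 scale, and no direction is read from it. In control offspring its level could not be compared. Ppara, Cyp4a10 and Cyp4a3 were named after their values were seen.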

How the data were processed

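Liver RNA of 4 groups of rats, 1 sample each, was measured on Illumina BeadArrays. The authors deposited normalized signal intensity per gene with a STDEV and a detection p-value, per the file headers. The submitters' processing notes name GenomeStudio. Its version, the normalization and the number of measurements behind a STDEV are not stated in the labels. The deposited non-normalized intensity has identifiers out of step with its values (r between 0.0587 and 0.0658 by identifier), so it was paired with genes by row order for 20872 genes and served as an alternative.

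From the deposited normalized values, background was removed with limma (version 3.58.1, run in R 4.3.3) by a normexp fit to detection p-values, on 21187 rows whose p-value lay on the steps of single probes. After adding 16, values were quantile-normalized and put on the log2 scale. Genes with several rows kept the brightest, which left 21480 genes. A gene detected (p-value under 0.05) on 1 sample of a pair got a bound, with the undetected value raised to the lowest detected one of rows with such p-values where it lay below it. Combined STDEVs were carried over from the deposited ones. The steps were tested on simulated data. Alternatives were no background correction, median scaling, both other detection rules, the non-normalized table and intervals of 2 STDEV apart.

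Values of all samples are given for members past 1.5-fold in any pair, for Cpt1a, Acadm, Acadvl, Hadha and Hadhb, for bright members listed as not detected, and for Fabp1, Acot2, Decr1 and Dci, added after their values were seen. The members and lists were chosen with earlier results of these data known. Arrays give no counts, and 1 sample per group limits the precision.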

Additional observations from a re-analysis of the deposited data

Results flagged for a closer look

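The diet differences of Acaa1b (RGD1562373 in the file) and Fgf21 had opposite signs in control and FR30 offspring. In FR30 offspring both were under 1.5-fold, and for Acaa1b the intervals of 2 STDEV overlapped. For Acaa1b, high-fat minus standard was -1.27 on the log2 scale in controls and 0.46 in FR30 offspring, and the difference between these was 1.72 with a combined STDEV of 0.30. For Fgf21 the values were 0.60 and -0.48, and their difference was -1.07 with a combined STDEV of 0.20. Without background correction the values for Fgf21 were 0.42 and -0.30, and their difference was -0.72, under 2-fold. For Acaa1b the difference was then 1.17. With 1 sample per group neither difference was tested.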

How the results depend on the processing

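No paired analysis was possible because each group holds 1 sample, and leaving out a sample would remove a group. Of the counts of members, 7 moved by over 1.5 times under an alternative. Without background correction, 3 members in place of 5 were higher and 1 in place of 2 lower with diet in controls. Those no longer higher were Vnn1 and Fgf21. In the same setting 1 in place of 2 was higher in FR30 offspring on the high-fat diet. A diet difference at least 2-fold lower in FR30 offspring was left for 1 in place of 2. With detection set by signal, and with no detection filter, 1 member in place of 0 was lower with diet in FR30 offspring, which was Angptl4. With intervals of 2 STDEV apart required, 0 members in place of 1 were higher in FR30 offspring on the standard diet, the lost one being Cd36. Of 67 differences of the 14 members picked by the rule, 22 moved by more than their combined STDEV without background correction and 3 with median scaling, and 2 of 62 did so in the non-normalized table. The sign turned for 4 differences without background correction, 4 with median scaling and 4 in the non-normalized table, all of Acadm or Hadhb and at most 0.10 in size. For Acadm in FR30 against control offspring on the standard diet, 0.05 became -0.07 under both of the first settings.

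Over all genes, no background correction left 111 higher and 134 lower with diet in controls, against 235 and 301, and 162 and 133 in FR30 offspring, against 353 and 308. Between FR30 and control offspring it left 82 and 69 on the standard diet, against 191 and 201, 59 and 44 on the high-fat diet, against 164 and 147, and 45 and 27 for the difference of diet differences, against 93 and 91. On the standard diet, 112 genes in place of 191 were higher in FR30 offspring with intervals apart required. Folds of dim genes such as Acot1 and Acsm2 depend most on the background subtracted.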
